A study of Mus musculus with 6 samples.

Results

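Epidermal keratinocytes mature as they move from the basal layer to the surface, and a small set of transcription factors steers this programme. The p63 protein maintains the basal state and licenses stratification, and it switches on the zinc finger factor ZNF750, which drives terminal differentiation. Ovol1 and Prdm1 (Blimp1) act mainly as repressors in cells that leave the cycle, the grainyhead-like factors Grhl1 and Grhl3 activate genes of the skin barrier and of desmosomes, and Hopx, Gata3 and Tfap2c take part in epidermal and other epithelial differentiation. The corneal epithelium is also stratified, but it normally expresses keratin 12 and does not cornify.

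The genes described here are 9 such regulators, Trp63, Ovol1, Grhl1, Grhl3, Hopx, Zfp750, Prdm1, Gata3 and Tfap2c. They were chosen by gene symbol as known regulators of keratinocyte differentiation, and each matched 1 row of the 17866 genes in the deposited table. RNA from the epithelium of the cornea was sequenced from C57BL/6 mice at 6 months of age, with 3 wild-type libraries (WT) and 3 Rela-/- libraries (KO). Rela encodes a subunit of the canonical NF-κB transcription factor. The comparison addresses how the epithelium changes once Rela is lost. According to the study, the mutants carried Krt14-Cre and floxed Rela (Rela f/f). Deletion was thus driven by the promoter of a keratin of basal epithelial cells. The study's lineage tracing with Krt14-Cre also marked conjunctiva, meibomian gland, skin, oral mucosa and trachea. WT was labelled only as such, and whether the wild-type mice carried the floxed allele or the Cre is not given in the labels.

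The libraries held between 20158404 and 20880347 estimated counts. Rela itself had 86.4 ± 1.21 CPM in WT and 14.3 ± 2.71 CPM in KO (SD, n = 3 each), which left 16.5% of the WT level. The corneal markers Krt12, Pax6, Aldh3a1 and Tkt summed to between 65245 and 66397 CPM in WT and between 10883 and 13127 CPM in KO. All 4 were lower in KO, with a median log2 fold change of -2.37, so the KO epithelium carried its labelled tissue's markers at a reduced level. CPM express counts relative to the library total, scaled by the trimmed mean of M-values (TMM). In bulk tissue such as this, fewer cells of a type and less RNA per cell cannot be told apart.

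Of the 9 regulators, 8 had enough counts to be tested, and Ovol1 and Grhl3 were higher in KO while none was lower. A gene was called at an adjusted p of 0.05 or less in edgeR's quasi-likelihood test with Benjamini-Hochberg adjustment over 13305 genes. Among all tested genes 62.0% were called, 31.8% higher and 30.2% lower in KO, and among 1030 tested transcription factor genes 59.0% were called, 18.1% higher and 41.0% lower. The median absolute log2 fold change was 0.19 over the 8 regulators and 0.53 over all tested genes, and 6 of the 8 lay under the latter value. Gata3 failed the filter on low counts in the fit and is described by its counts.

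**Figure D1:**
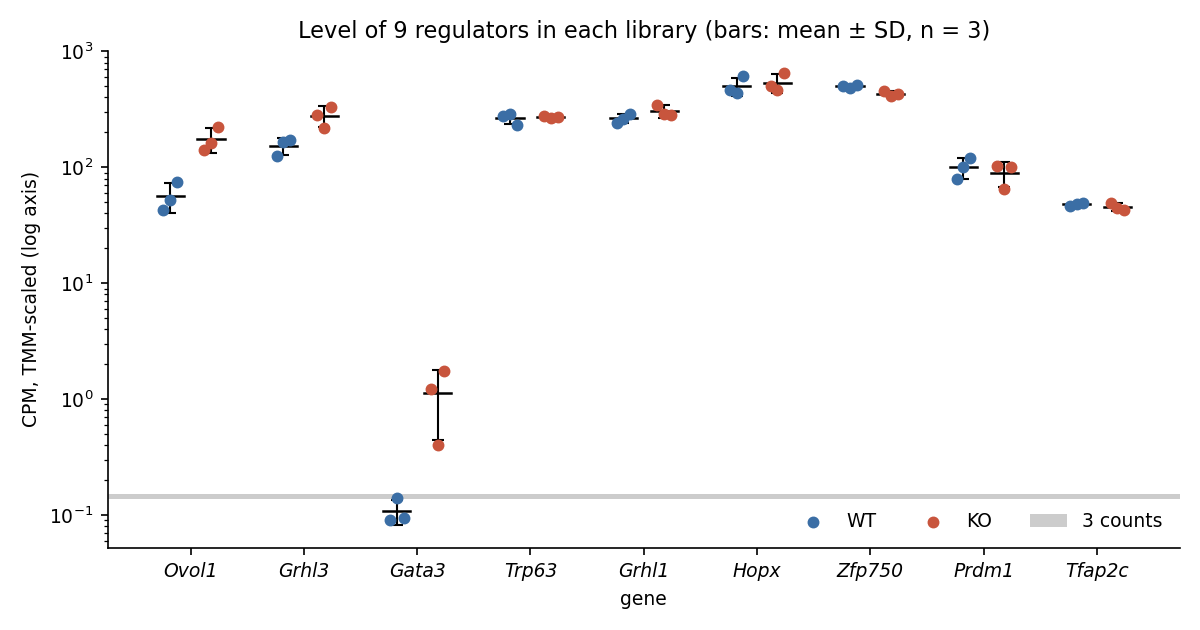
Level of the 9 regulators in each library in CPM on a log axis, with WT in blue and KO in red. Black bars give the mean and SD (n = 3), and the grey band marks 3 counts. The KO points of Ovol1, Grhl3 and Gata3 lie above all WT points, those of Zfp750 lie below, and the other 5 genes overlap.

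Promoter sequence was available for 5 of the regulators from RefSeq (GRCm38.p6). The 250 bases before 1 annotated RefSeq start each of Grhl3, Grhl1 and Gata3 are shown, because the grainyhead-like genes differed in their calls and Gata3 went from near absence to detection. Bases are in lower case, and capitals mark matches to GCCNNNGGC, the core of the AP-2 motif that Tfap2c recognises, whose letters read the same on both strands.
Grhl3, chr4:135573633-135573882, minus strand: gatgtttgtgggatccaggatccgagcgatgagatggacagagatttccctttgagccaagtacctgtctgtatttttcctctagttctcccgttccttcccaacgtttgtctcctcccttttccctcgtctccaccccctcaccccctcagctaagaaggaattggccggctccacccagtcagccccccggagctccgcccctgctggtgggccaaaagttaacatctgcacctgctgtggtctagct
Grhl1, chr12:24572037-24572286, plus strand: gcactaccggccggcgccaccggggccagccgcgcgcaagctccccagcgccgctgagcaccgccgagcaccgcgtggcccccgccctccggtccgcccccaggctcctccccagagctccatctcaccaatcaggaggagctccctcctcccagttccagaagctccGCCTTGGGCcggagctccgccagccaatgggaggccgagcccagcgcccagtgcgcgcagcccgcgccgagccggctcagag
Gata3, chr2:9878601-9878850, minus strand: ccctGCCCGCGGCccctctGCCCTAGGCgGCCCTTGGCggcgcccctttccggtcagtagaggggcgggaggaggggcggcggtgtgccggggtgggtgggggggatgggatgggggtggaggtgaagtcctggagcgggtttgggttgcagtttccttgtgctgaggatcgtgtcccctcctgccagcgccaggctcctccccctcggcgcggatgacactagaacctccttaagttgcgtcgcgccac
The Gata3 window precedes an internal start: it lies within the span that GENCODE M21 gives the gene (chr2:9857078-9890034) and overlaps the antisense gene Gm13256. It held 3 matches, the first base of which lay 246, 231 and 221 bases before that start. The Grhl1 window shown held 1 match at 82 bases, and a second Grhl1 window (chr12:24580469-24580718) and the Grhl3 window held none. Hopx, which was not called, had 1 and 2 matches in its windows, and the Prdm1 window had none. Of 32851 promoter windows of the same length, 13.7% held at least 1 match. The consensus κB site, searched on both strands by its general form, occurred in 7.3% of these windows and in none of the 7 windows of Grhl1, Grhl3, Hopx, Prdm1 and Gata3. The base composition also differed, with G or C making 56.0% of the Grhl3 window, 75.6% and 52.0% of the Grhl1 windows and 70.0% of the Gata3 window. Trp63, Ovol1, Zfp750 and Tfap2c had no promoter entry.

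Trp63 encodes p63, the basal regulator of stratified epithelia, and lies at chr16:25683763-25892088 on the plus strand (GRCm38). Its level was 278, 286 and 231 CPM in the WT libraries and 279, 265 and 270 CPM in the KO libraries. The third WT library was the lowest of the 6, and the groups overlapped. The log2 fold change was 0.03 (SE 0.106, 95% interval -0.21 to 0.28, edgeR adjusted p = 0.797). The row merged 14 transcripts, and the isoforms with and without the transactivation domain cannot be separated in it. Its p53-family relatives moved differently. Trp73, which encodes p73, rose, with 48 to 63 counts in WT and 285 to 409 in KO (log2 fold change 2.70, edgeR adjusted p = 1.13e-05). Trp53 rose by a log2 fold change of 0.57 (edgeR adjusted p = 0.00205).

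Tfap2c, which encodes the AP-2γ factor of the early keratinocyte programme, lies at chr2:172545679-172558622 on the plus strand. It was measured at 46.4, 48.1 and 49.5 CPM in WT and at 49.6, 44.4 and 43.2 CPM in KO. These groups overlapped, with a log2 fold change of -0.07 (SE 0.0906, 95% interval -0.28 to 0.14, edgeR adjusted p = 0.517). Of its AP-2 relatives, Tfap2b rose by a log2 fold change of 2.12 (edgeR adjusted p = 0.00325), from 133, 249 and 248 counts in WT to 1085, 340 and 1116 counts in KO. The second KO library was the lowest of the 3 KO libraries for Tfap2b. Tfap2a had a log2 fold change of -0.08 (edgeR adjusted p = 0.671) and Tfap2e one of -0.11 (edgeR adjusted p = 0.713).

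Ovol1, a zinc finger repressor that accompanies exit from the cycle, lies at chr19:5549137-5560575 on the minus strand. Its level was 43.0, 52.5 and 74.3 CPM in WT and 141, 162 and 224 CPM in KO. Each KO library was above each WT library, and the third library was the highest in both groups. The mean rose from 56.6 ± 16.0 to 176 ± 43.5 CPM (SD, n = 3 each), which was 3.11-fold (95% interval 2.16 to 4.48, log2 fold change 1.64, SE 0.230, edgeR adjusted p = 3.94e-04). It was the one regulator to pass the study's threshold, which asks for at least a 2-fold change and an adjusted p of 0.001 or less. Of all tested genes, 19.8% passed it, 11.6% higher in KO. Ovol1 no longer passed it without the first WT, the second WT, the second KO or the third KO library, although its edgeR adjusted p then rose only to between 0.00110 and 0.00177. The Ovol1 counts were not whole in all libraries as deposited, which is how estimated counts appear when reads match more than 1 row. An antisense gene and a pseudogene also overlap the locus, and whether counting used strand is not given in the sources used here. The paralog Ovol2, which restrains the mesenchymal programme in epithelia and is a known repression target of Ovol1, went the other way, from 226, 236 and 230 counts in WT to 70, 90 and 112 in KO (log2 fold change -1.24, edgeR adjusted p = 4.37e-04).

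Prdm1 encodes Blimp1, a repressor of the granular layer and of plasma cells and some lymphocytes, and lies at chr10:44437174-44528560 on the minus strand. The WT libraries held 79.9, 101 and 121 CPM and the KO libraries 102, 64.8 and 101 CPM. The second KO library was the lowest of the 6 and the groups overlapped. Its log2 fold change was -0.17 (SE 0.202, 95% interval -0.63 to 0.29, edgeR adjusted p = 0.486). Of 5 markers of B and plasma cells, 3 were at 3 counts or fewer in every library, and the summed level of the 5 was 0.602 to 1.02 CPM in WT and 0.832 to 1.30 CPM in KO. Cd79a and Ms4a1 were at 0 in all WT libraries.

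Grhl3, a grainyhead-like activator of barrier genes including the transglutaminase Tgm1, lies at chr4:135541887-135573625 on the minus strand. Its level was 125, 166 and 171 CPM in WT and 284, 220 and 334 CPM in KO. Each KO library exceeded each WT library, and the second KO library was the lowest of the KO group. The rise was 1.81-fold (95% interval 1.37 to 2.40, log2 fold change 0.86, SE 0.177, edgeR adjusted p = 0.00297). Grhl1, which activates desmosomal cadherin genes, lies at chr12:24572154-24619413 on the plus strand. It was measured at 241, 261 and 288 CPM in WT and at 348, 286 and 281 CPM in KO. These groups overlapped, with a log2 fold change of 0.21 (SE 0.119, 95% interval -0.06 to 0.48, edgeR adjusted p = 0.158). The remaining family gene, Grhl2, was lower in KO, at 1423 to 1566 counts against 2588 to 2668 in WT (log2 fold change -0.72, edgeR adjusted p = 1.21e-04).

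Zfp750 encodes the mouse counterpart of ZNF750 and lies at chr11:121510976-121519342 on the minus strand, inside the span of Tbcd, a gene of the opposite strand. Its level was 501, 485 and 509 CPM in WT and 456, 409 and 433 CPM in KO. Every KO library was below every WT library, but the log2 fold change of -0.20 was small and missed the threshold (SE 0.0935, 95% interval -0.42 to 0.01, edgeR adjusted p = 0.0889). Among all tested genes, 68.7% had groups that did not overlap, 34.7% with KO entirely above WT and 33.9% with KO entirely below. Of the 8 regulators tested, 3 did not overlap, namely Ovol1, Grhl3 and Zfp750.

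Hopx, an atypical homeodomain protein of differentiating epidermis that does not bind DNA, lies at chr5:77086986-77115123 on the minus strand. It was measured at 466, 435 and 607 CPM in WT and at 498, 461 and 646 CPM in KO. The third library was the highest in both groups and the groups overlapped. The log2 fold change was 0.09 (SE 0.170, 95% interval -0.30 to 0.48, edgeR adjusted p = 0.666). An antisense gene, Hopxos, overlaps Hopx.

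**Figure D2:**
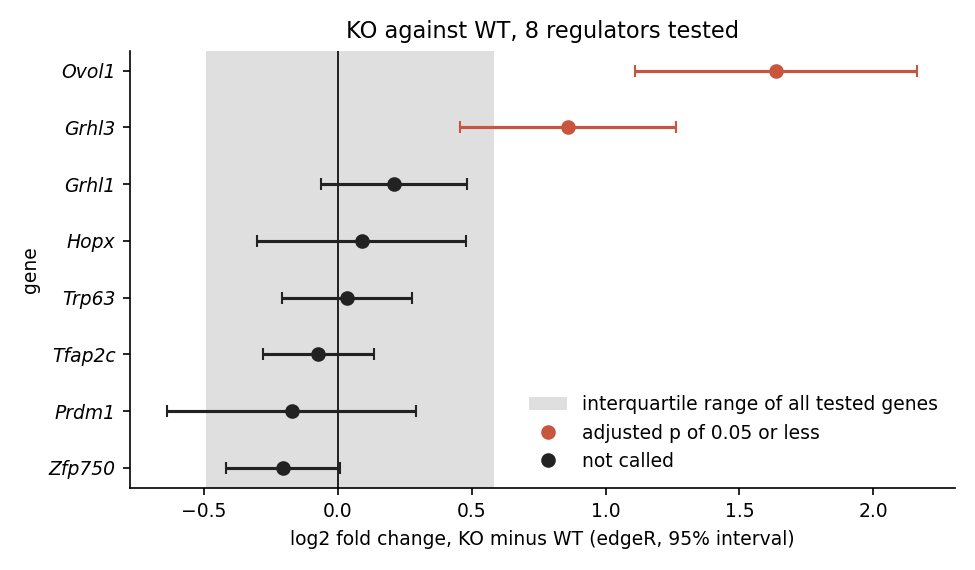
Log2 fold change of the 8 tested regulators, KO minus WT, with 95% intervals from edgeR. Ovol1 (1.64) and Grhl3 (0.86) lie to the right of the grey band, which is the interquartile range of all tested genes, and the other 6 estimates lie within it.

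Gata3, a factor of the interfollicular epidermis that also directs T lymphocytes and other lineages, was near absence in WT. Its counts were 2, 3 and 2 in WT and 24, 8 and 35 in KO, so every KO library was above every WT library and the second KO library was the lowest of its group. A count of 3 corresponds to between 0.137 and 0.142 CPM in the WT libraries. The mean of 1.12 CPM in KO was 8.02 times the mean of these WT floors, with the second KO library at 0.401 CPM. With the filter on low counts removed, Gata3 was called higher (edgeR adjusted p = 0.00332). The related genes Gata1, Gata2 and Gata4 had 2 counts or fewer in every library, Gata5 had between 5 and 8, and Gata6 had at most 6.

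Markers of T lymphocytes and of goblet cells and conjunctiva were read beside Gata3. All 8 T lymphocyte markers were higher in each KO library than in each WT library, as were 34.7% of all tested genes. The summed level of these markers was 1.47 to 1.64 CPM in WT and 16.5, 9.06 and 16.2 CPM in the KO libraries. Cd2 was at 0 in all WT libraries. Of the 8 goblet cell and conjunctiva markers, 7 were higher in each KO library, and Muc5ac, a secreted mucin, had 141, 15 and 214 counts in KO and 0 in WT. The second KO library was the lowest of the KO group for Gata3, for the summed T lymphocyte markers and for Muc5ac. This order did not hold over the whole lists. The summed goblet cell and conjunctiva level was lowest in the third KO library, at 52218 CPM against 61564 CPM in the second. Krt13 was also lowest in the third KO library, and Krt19 and the T lymphocyte marker Cd3d were lowest in the first. The part of these cells in the Gata3 counts was not tested. The table lists the Gata3 row on the plus strand at chr2:9857078-9878870, while the annotation (GENCODE M21) gives Gata3 on the minus strand and an antisense gene, Gm13256, on the plus strand up to position 9878869. Reads of the gene and of its antisense partner therefore cannot be told apart in this row.

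Levels of different genes were compared per length, in TPM, which divide by transcript length and sum to the same total in each library. In WT, Hopx was the highest at 935 ± 140 TPM, followed by Zfp750 at 338 ± 12.4, Grhl1 at 169 ± 9.91, Trp63 at 138 ± 24.6 and Grhl3 at 122 ± 16.5 TPM (SD, n = 3). Ovol1, Prdm1 and Tfap2c followed at 42.9, 42.0 and 37.5 TPM, and Gata3 was at 0.0767 TPM. The ranges of Trp63 and Grhl3 overlapped, as did those of Ovol1, Prdm1 and Tfap2c. In KO, Hopx and Zfp750 stayed highest at 788 and 232 TPM, Grhl3 came next at 174 ± 33.6 TPM with a range that overlapped that of Grhl1 at 155 ± 19.6 TPM, and Trp63 and Ovol1 stood level at 106 TPM each. Prdm1 at 29.5 TPM and Tfap2c at 28.2 TPM overlapped below them, and Gata3 was at 0.600 TPM.

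**Figure D3:**
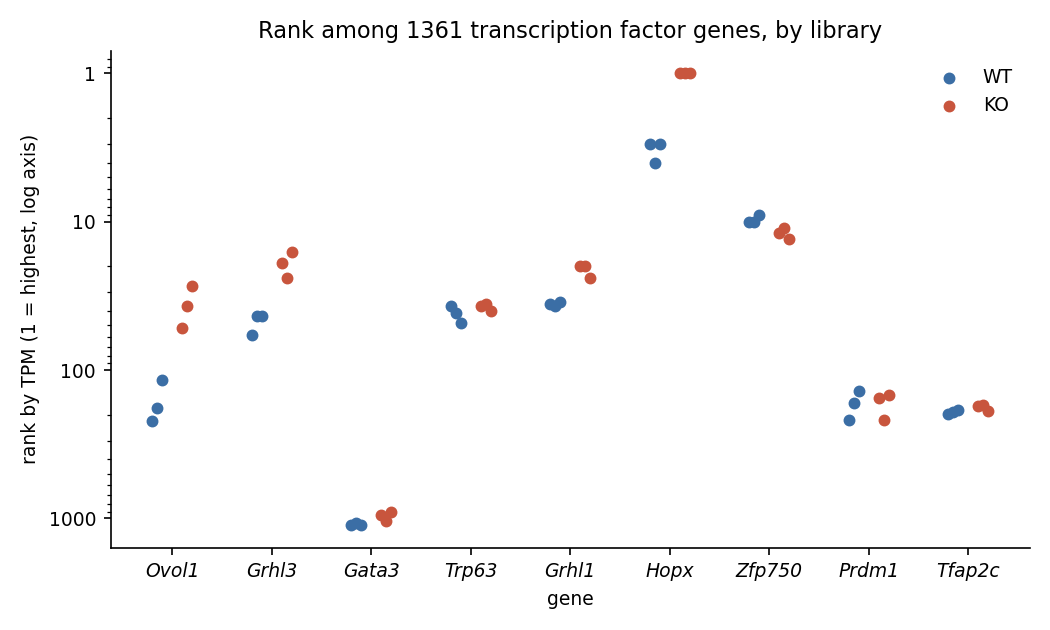
Rank of the 9 regulators by TPM among the 1361 transcription factor genes in the table, for each library (log axis, 1 is the highest). Ovol1 moved from places 117 to 222 in WT to places 27 to 52 in KO, and Hopx from 3 or 4 to 1.

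Placed among all 1361 transcription factor genes listed in the table, the regulators ranged from the top to the lower end. Hopx was at place 3 or 4 in the WT libraries and at place 1 in each KO library. Zfp750 was at places 9 to 10 in WT and 11 to 13 in KO. Grhl3 went from places 43 to 58 to places 16 to 24, and Ovol1 from places 117 to 222 to places 27 to 52. Grhl1, which was not called, also went from places 35 to 37 to places 20 to 24. Trp63 stayed between places 36 and 48 over all 6 libraries, and Gata3 lay between places 911 and 1112. These ranks depend on all other genes of the library and were not tested. The median log2 fold change over the 1030 tested transcription factor genes was -0.25.

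Within a gene family the share of the summed TPM is free of the scaling between libraries. Ovol1 held 69.5% ± 5.01 of the Ovol family in WT and 94.6% ± 0.181 in KO, while Ovol2 held 30.4% and 5.42%. Grhl3 held 35.1% ± 2.56 of the Grhl family in WT and 48.8% ± 5.99 in KO, and Grhl2 held 16.1% and 7.42%. The share of Grhl1 was 48.9% ± 1.31 in WT and 43.8% ± 5.46 in KO, and these groups overlapped. Trp63 held 67.5% ± 1.79 of the p53 family in WT and 56.3% ± 1.61 in KO, and Trp73 went from 0.638% to 3.45%. Tfap2c held 31.5% ± 1.11 of the AP-2 family in WT and 28.8% ± 4.46 in KO, with overlapping groups. With 3 libraries against 3, the smallest p that an exact two-sided permutation test allows is 0.1, which each share without overlap reached, and the lowest Benjamini-Hochberg value over 13 shares was 0.144, so no share passed a threshold of 0.05.

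**Figure D4:**
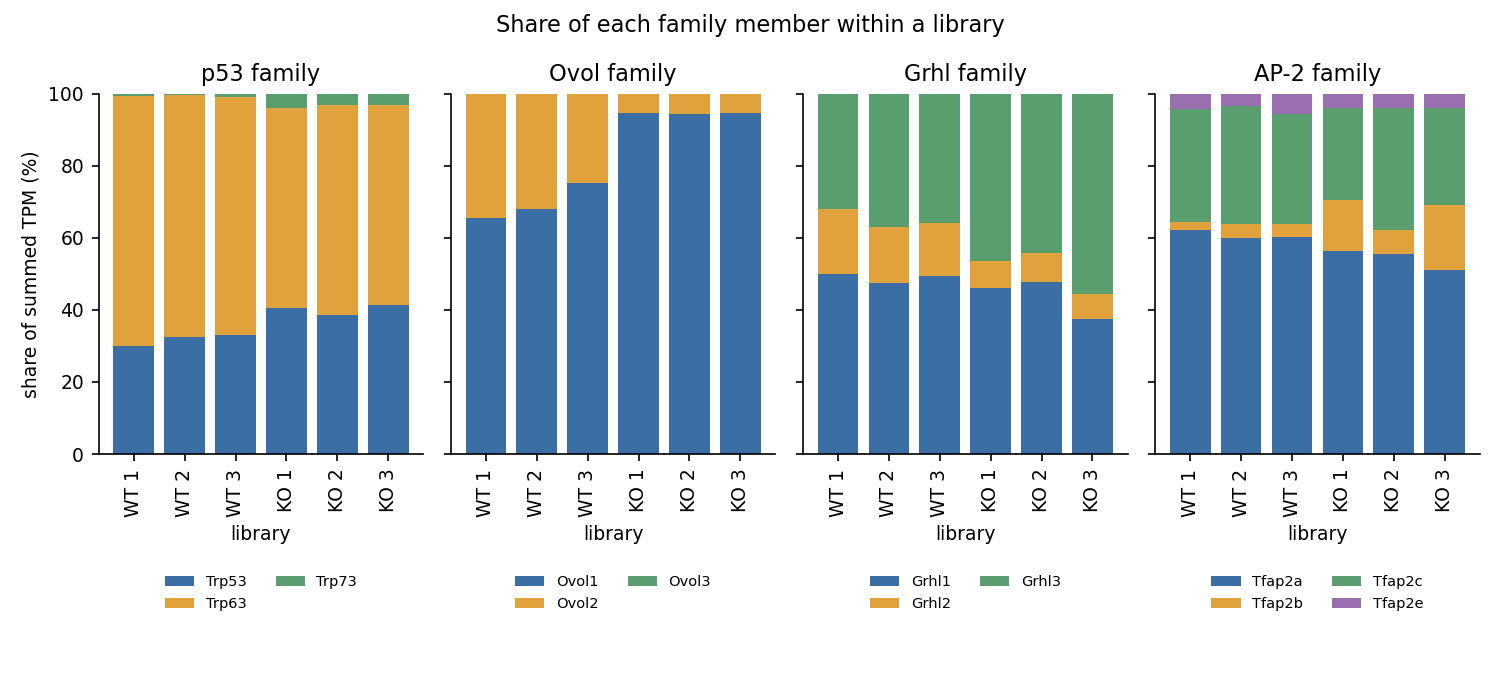
Share of each gene in the summed TPM of its family (%), for each library. Ovol1 fills 94.4% to 94.7% of the Ovol bars in KO against 65.4% to 75.1% in WT, and Grhl3 fills 44.3% to 55.6% of the Grhl bars in KO against 32.2% to 37.1% in WT.

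The same library was often the highest or lowest for several regulators. The third WT library had the highest WT level for 7 of the 9 genes, and it was the lowest for Trp63. In KO, the second library had the lowest level for 6 of the 9 genes. The relative spread over the 3 WT libraries was 28.3% of the mean for Ovol1 and 20.5% for Prdm1 but 2.45% for Zfp750 and 3.21% for Tfap2c, and within KO it was 24.7% for Ovol1 and 2.62% for Trp63.

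The gene nearest in pattern to each regulator over the 6 libraries was sought among 12390 other tested genes with a mean of at least 1 CPM. Nearness was the root mean square difference of log2(CPM + 0.5), centred on each gene's mean. The WT levels of Gata3, 0.0916 to 0.140 CPM, lay under the added 0.5, which shrinks its change in this measure. The nearest gene to Ovol1 was Basp1 (0.159), the nearest to Grhl3 was Ppp1r15a (0.0886), and the nearest to Gata3 was Akna (0.0884). The number of genes within 0.1 was 632 for Zfp750, 536 for Tfap2c, 250 for Trp63, 96 for Grhl1, 9 for Hopx, 3 for Grhl3, 2 for Prdm1, 2 for Gata3 and 0 for Ovol1. Trp63 was nearest to Tmem110 (0.0182), Grhl1 to Fuca1 (0.0471), Hopx to Asprv1 (0.0618), Zfp750 to Arhgap32 (0.0111), Prdm1 to Phlda1 (0.0799) and Tfap2c to Ppp1r14b (0.0296). In the gene ontology terms listed in the table, 5 of the 9 regulators (Trp63, Ovol1, Grhl1, Grhl3 and Zfp750) carried epidermis development, which 75 genes of the table carried.

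Genes that other work places under these regulators were taken as lists of known targets. Of 14 known p63 targets, 3 were higher in KO, 8 lower and 3 not called, with a median log2 fold change of -0.57 beside 0.01 over all tested genes. Among all tested genes 62.0% were called, 31.8% higher and 30.2% lower. The highest were Krt14, a basal keratin (4.15), Cldn1, a tight junction claudin (1.08) and Perp, a desmosomal protein (0.77). The lowest were the basement membrane gene Fras1 (-4.33), the chromatin organiser Satb1 (-3.53) and the hemidesmosome gene Col17a1 (-1.96). Trp63 itself had the log2 fold change of 0.03 given above.

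Of 8 known Grhl targets, 3 were higher, 3 lower and 2 not called, with a median of -0.04. The counts of this and the following short lists stand beside 62.0% of all tested genes called, 31.8% higher and 30.2% lower. Dsg1b, a desmosomal cadherin (2.42), and the transglutaminases Tgm1 (2.03) and Tgm5 (1.32) rose, and Cldn4 (-0.56), Arhgef19 (-0.50) and Cdh1, E-cadherin (-0.32), fell. The calls of Arhgef19 and Cdh1 were lost with a length correction (edgeR adjusted p = 0.106 and 0.329) and without the first WT (0.148 and 0.0863), the second KO (0.117 and 0.116) or the third KO library (0.0972 and 0.101), and that of Cdh1 also without the second WT (0.131) or the third WT library (0.064) or at a mean count of at least 50 (0.0556). Dsg1b and the uncalled Dsg1a and Dsg1c are near-identical copies whose reads could be split between them. Of the 5 known Zfp750 targets, Lor, Flg and Pla2g2f rose, Ivl fell with a log2 fold change of -0.60, and Klf4, a pluripotency and differentiation factor, was not called at -0.32. The call of Ivl was lost without the second WT (edgeR adjusted p = 0.106), the third WT (0.089) or the second KO library (0.0964), and with the replicate block (0.0637). Zfp750 itself was at -0.20 and not called. Of the 6 tested genes that Blimp1 or Ovol1 is known to repress in keratinocytes, Myc rose (1.53), Ovol2 (-1.24), Id2 (-1.06) and Nfat5 (-0.67) fell, and Fos (-0.36) and Dusp16 (-0.22) were not called.

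Of 26 other regulators of keratinocyte differentiation, 12 were higher, 6 lower and 8 not called, with a median log2 fold change of 0.38. Of all tested genes, 31.8% were called higher and 30.2% lower. Fosl1, an AP-1 subunit, was at least 48.2-fold higher and Pou3f1, a POU factor, at least 76.1-fold higher in KO against a floor of 3 counts, and Maf, a leucine zipper factor, had a log2 fold change of 6.54. The lowest were Satb1 (-3.53), the epithelial ETS factor Elf3 (-1.10) and the Notch effector Hes1 (-0.89). The 12 genes of the upper epidermis stood apart in level: 11 rose and Ivl fell, with a median of 9.65. Of these, Krtdap (13.90) and Flg, filaggrin (11.41), had 12 counts or fewer in each WT library, and the lipid transporter Abca12 was at least 1077-fold higher. Casp14 (1.18) and Tgm1 (2.03) rose least. The median over the 8 tested regulators was 0.06. Both lists were chosen with earlier results of these data known, so this contrast is a description and not a test.

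**Figure D5:**
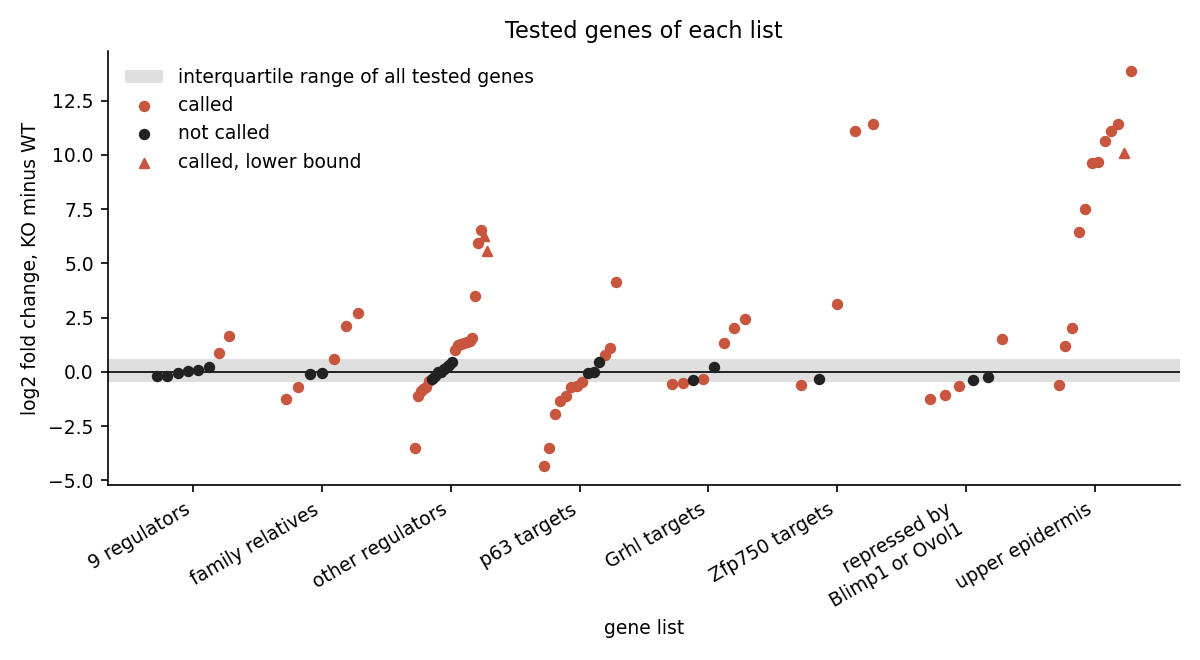
Log2 fold change, KO minus WT, of the tested genes of each list (red called, black not called, triangles lower bounds, grey band the interquartile range of all tested genes). The 8 tested regulators lie between -0.20 and 1.64, while the upper epidermis genes reach 13.90.

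Markers of other cell types were read over whole lists. Among all tested genes, 31.8% were called higher and 30.2% lower, and 34.7% had KO entirely above WT. Myeloid and Langerhans cell markers gave 5 higher and 1 lower of 7 tested, but their summed level of 266 to 337 CPM in WT and 191 to 267 CPM in KO was made mostly of Itgam and Cd68, which were already present in WT. Stromal fibroblast markers gave 3 higher (Col1a1, Col1a2 and Dcn, the last at least 32.4-fold) and 1 lower (Pdgfra, log2 fold change -3.43) of 4 tested, and 5 of the 6 were higher in each KO library than in each WT library. Their sum, made mostly of Pdgfra in WT, was 12.3 to 16.1 CPM in WT and 7.02 to 11.0 CPM in KO, and that of blood vessel markers 1.24 to 1.85 CPM and 2.21 to 3.29 CPM. Melanocyte markers gave 7.51 to 9.70 CPM in WT and 5.31 to 5.34 CPM in KO, and meibomian and sebaceous markers 456 to 583 CPM and 245 to 324 CPM. The meibomian and sebaceous list was split, with 1 higher and 2 lower of 4 tested. In that list 2 genes had KO entirely above WT and 2 entirely below. The summed goblet cell and conjunctiva level, set mainly by Krt13 and Krt4, was 1874 to 2902 CPM in WT and 52218 to 66931 CPM in KO. Whether any of these cells contributed to the rise of Ovol1 or Grhl3 was not tested.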

How the data were processed

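RNA of 3 WT and 3 KO corneal epithelia was deposited as 1 gene table. Per the labels and the study's methods, the authors aligned reads with Bowtie2 (2.2.5) and estimated expected counts with RSEM (1.2.12), giving estimated counts, FPKM and TPM as deposited. The processing notes name mm9, but the coordinates in the table are of GRCm38. The labels name an Illumina kit, while the study's methods describe sequencing on a BGISEQ platform. Whether counting used strand is not given in the sources used here. The authors' deposited log2 fold changes and p-values, from their own DESeq2 comparison, and their group means were not used. The study's methods describe the 3 libraries of a group as independent biological samples.

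Expected counts were rounded and tested with edgeR (4.0.16) on R 4.3.3, with TMM scaling, filterByExpr (minimum count 10), and quasi-likelihood F-tests with Benjamini-Hochberg adjustment over 13305 genes. The test was checked on simulated counts in which few genes changed. In these data 62.0% of genes were called, a setting that the check did not cover. Levels per length are the deposited TPM. Floors of 3 counts cover counting error only, and intervals are 95% from the fit. The genes named were Rela, the 9 regulators, the nearest gene to each regulator and genes of the lists. For lists over 8, these were mainly the 3 highest and 3 lowest called. Members and lists were chosen with earlier results of these data known. The 18 alternatives used DESeq2 (1.42.0), limma (3.58.1) on FPKM and TPM, other scalings and filters, a length correction, a replicate block and leaving out each library. A marker gene of the B and plasma cell list is not reported here.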

Additional observations from a re-analysis of the deposited data

How the results depend on the processing

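Ovol1 and Grhl3 were higher and past the threshold in the main analysis and under all 18 alternatives, with log2 fold changes of 1.28 to 1.89 and 0.51 to 1.01 and the largest adjusted p-values at 0.00177 and 0.0184 (edgeR, DESeq2 or limma). Hopx was called under none, at -0.25 to 0.26. DESeq2 called 4 regulators and limma on log2(TPM + 1), which was chosen after seeing the data, called 6. On the TPM scale the median of all genes moved by -0.29 and the calls were 2754 higher and 6350 lower against 4231 and 4022. There Trp63 stood at -0.37 (limma adjusted p = 0.0324), Prdm1 at -0.51 (limma adjusted p = 0.0387) and Tfap2c at -0.40 (limma adjusted p = 0.00442). Relative to the median of all genes on that scale, these were -0.08, -0.23 and -0.12. Trp53 was no longer called there (limma adjusted p = 0.112). Zfp750 became lower at -0.30 with library totals (edgeR adjusted p = 0.0192), at -0.20 with DESeq2 (adjusted p = 0.0433), at -0.30 with limma on log2(FPKM + 1) and log2(FPKM + 0.1) (adjusted p = 0.00704 and 0.0073), and at -0.55 on log2(TPM + 1) (adjusted p = 3.32e-04). The median of all genes had itself moved by -0.09 with library totals, and by -0.07 and -0.09 with log2(FPKM + 1) and log2(FPKM + 0.1). On the TPM scale Zfp750 stood at -0.26 relative to the median. Grhl1 became higher at 0.35 with the length correction (edgeR adjusted p = 0.0301). The study's threshold was passed by 2 regulators with DESeq2, Ovol1 and Gata3, and by 0 to 1 when 1 library was left out, with 0 without the first WT, the second WT or the third KO library. Without the second KO library the 1 was Gata3 and not Ovol1. The cause of these changes was not tested.

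Replicate numbers gave no clear pairing: same-numbered deviations correlated at 0.0345, -0.00998 and 0.0606, and not every library correlated best with its own number. With 3 libraries a group, weak pairing could not be told from none. With the replicate block 2 regulators were called, 8083 genes in all against 8253. Ovol1 stood at 1.64, with an edgeR adjusted p of 3.3e-05 against 3.94e-04 in the main fit. Over the fits that included Gata3, its log2 fold change was 3.20 to 3.70 and called in each. Where a library was left out, Gata3 passed the count filter only through its KO counts. Its calls in those fits are therefore not separate support, and the size of the change rests on WT counts at the floor.

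Rounded expected counts, 3 libraries a group and unknown strand limit the small differences.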
